A study of Mus musculus with 8 samples.

Results

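The endoplasmic reticulum (ER) chaperones described here are 10 genes chosen by symbol: Hspa5, Hsp90b1, Hyou1, Canx, Calr, Dnajb9, Dnajb11, Dnajc3, Sdf2l1 and Manf. They are 10 of the 55304 gene symbols of GENCODE release M21 on the mm10 mouse genome, and their 44 transcripts are among 141730. No measured value was used to choose them, although results of these data were known when the set was proposed. H3K27ac ChIP-seq had been performed on mouse primary hepatocytes (MPH) from adult male WT mice of the C57Bl6 background, exposed for 4 h to 1 µM thapsigargin, which blocks the calcium pump of the ER and so induces ER stress (ERS), or to vehicle (0.04% DMSO). Each treatment had 3 H3K27ac libraries from separate hepatocyte preparations and 1 input library, 8 libraries in all, and no other allele or agent is given. The processed files used here list the positions of 32196 H3K27ac regions in 3 classes assigned by the authors: 5508 H3K27ac UP under thapsigargin (17.1%), 3376 H3K27ac DOWN (10.5%) and 23312 unchanged (72.4%). The lists give positions and names alone. Sequencing depth and the spread between preparations are thus unknown, and no difference between treatments was tested again.

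Proteins that enter the secretory pathway fold in the ER lumen with the help of chaperones, which bind exposed hydrophobic stretches or immature glycans. Misfolded proteins that accumulate there trigger the unfolded protein response (UPR), in which the transcription factors ATF6 and XBP1 act on promoters that carry the ER stress response element (ERSE) or related elements. Hepatocytes secrete most plasma proteins, and acetylation of lysine 27 of histone H3 marks active promoters and enhancers.

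The sequences upstream of 6 of the genes are shown first because each holds an ERSE or an ERSE-II. The ERSE was searched as CCAAT, 9 bases of any kind and CCACG. The ERSE-II was searched as ATTGG, 1 base of any kind and CCACG. Both strands were searched, and both motifs contain a CCAAT box. Each line gives the 180 bases before the reference transcription start site (TSS), 5′ to 3′ on the strand of the gene, read from the RefSeq GRCm38 assembly (mm10), with the fixed bases of each match in capitals.
Hsp90b1, chr10:86705510-86705689, minus strand: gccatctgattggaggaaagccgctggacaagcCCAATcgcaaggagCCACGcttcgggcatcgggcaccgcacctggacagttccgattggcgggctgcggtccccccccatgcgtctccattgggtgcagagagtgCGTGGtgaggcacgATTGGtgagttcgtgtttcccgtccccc
Canx, chr11:50325674-50325853, minus strand: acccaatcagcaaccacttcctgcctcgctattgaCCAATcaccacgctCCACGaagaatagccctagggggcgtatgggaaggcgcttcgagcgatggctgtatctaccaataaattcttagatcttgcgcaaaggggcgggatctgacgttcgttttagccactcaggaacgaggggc
Calr, chr8:84846935-84847114, minus strand: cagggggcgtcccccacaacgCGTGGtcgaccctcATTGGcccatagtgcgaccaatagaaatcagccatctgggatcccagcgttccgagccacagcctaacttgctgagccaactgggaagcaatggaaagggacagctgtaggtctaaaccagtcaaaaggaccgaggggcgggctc
Dnajc3, chr14:118937796-118937975, plus strand: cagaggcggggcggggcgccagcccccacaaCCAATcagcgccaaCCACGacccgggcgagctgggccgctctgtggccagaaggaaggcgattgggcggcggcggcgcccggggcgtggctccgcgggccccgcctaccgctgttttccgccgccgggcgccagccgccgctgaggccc
Hyou1, chr9:44379310-44379489, plus strand: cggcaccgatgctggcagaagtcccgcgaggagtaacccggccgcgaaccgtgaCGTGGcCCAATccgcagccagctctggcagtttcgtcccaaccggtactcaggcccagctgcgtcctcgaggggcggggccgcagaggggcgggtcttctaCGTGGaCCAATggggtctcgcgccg
Manf, chr9:106891980-106892159, minus strand: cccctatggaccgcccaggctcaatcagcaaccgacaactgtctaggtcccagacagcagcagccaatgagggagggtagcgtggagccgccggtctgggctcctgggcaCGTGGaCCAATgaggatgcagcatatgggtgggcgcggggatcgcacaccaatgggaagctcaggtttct
Positions are counted from the first transcribed base, which is 1, and are negative before it. An ERSE lay at -147 to -129 in Hsp90b1, at -145 to -127 in Canx, at -159 to -141 in Calr and at -149 to -131 in Dnajc3. Hsp90b1 held a further ERSE, on the opposite strand, at -42 to -24. The ERSE-II of Hyou1 lay at -126 to -116 and at -25 to -15, and that of Manf at -70 to -60, all on the strand opposite to the gene. In Hspa5 and Dnajb11 the window before the reference TSS held neither motif, but a match followed the TSS. It was the ERSE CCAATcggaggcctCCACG at 56 to 74 in Hspa5 and the ERSE-II ATTGGcCCACG at 8 to 18 in Dnajb11. The stretch after the TSS was searched only after the GENCODE start of Hspa5 was seen to lie upstream of the RefSeq start. Dnajb9 and Sdf2l1 held neither motif from 300 bases before to 200 bases after the TSS.

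**Figure D1:**
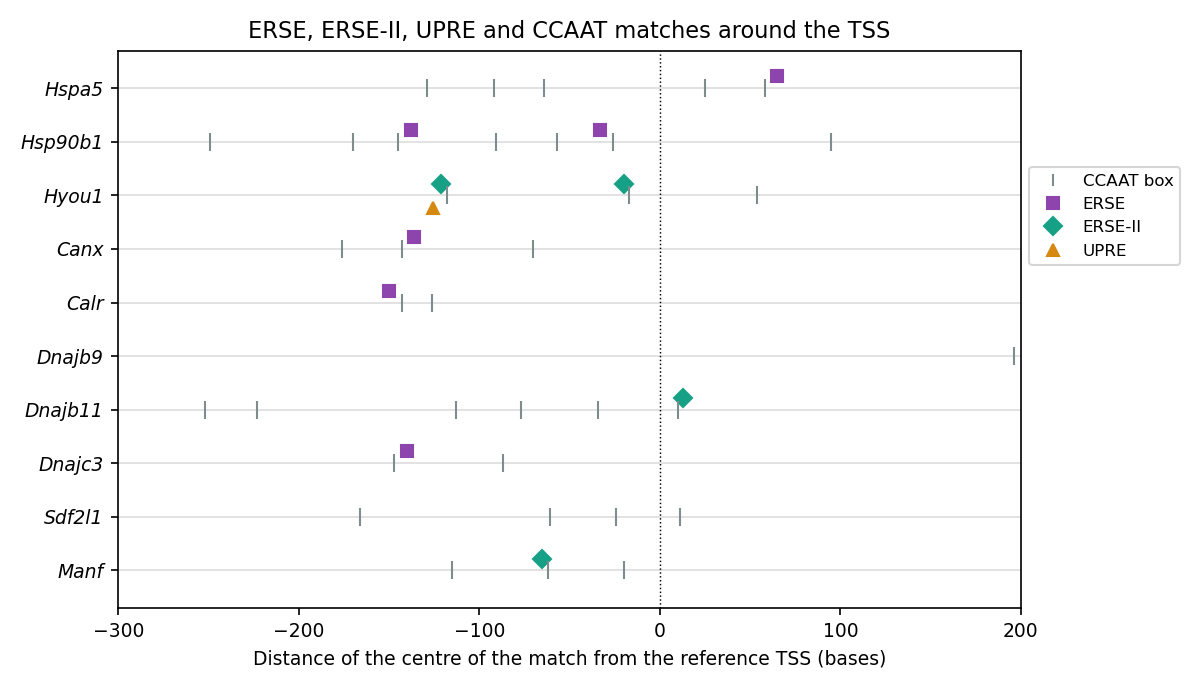
Matches of 4 motifs from 300 bases before to 200 bases after the reference TSS of each gene, with the distance in bases on the horizontal axis and each symbol at the centre of a match on either strand. An ERSE of Hsp90b1, Canx, Calr and Dnajc3 sits between -159 and -127, the further ERSE of Hsp90b1 at -42 to -24, that of Hspa5 lies downstream of the TSS, and Dnajb9 has a CCAAT box only at 194 to 198.

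These motifs were rare over protein-coding genes as a whole, a background that includes the 10 genes. In the 300 bases before the reference TSS, an ERSE was found in 4 of the 10 genes and in 0.143% of the 9762 protein-coding genes with a TSS in any region. An ERSE-II was found in 2 of 10 against 0.102%, and either motif in 6 of 10 against 0.246%. With the 200 bases after the TSS added, either motif was found in 8 of 10 genes against 0.307%. The CCAAT box, the site of NF-Y, was present in 9 of 10 genes against 38.3%, and the exception was Dnajb9. The UPR element (UPRE) bound by XBP1, searched as TGACGTGG, was found in 1 of 10 genes against 0.758%. That match was in Hyou1, at -129 to -122, where it overlapped the upstream ERSE-II. The CARE, the element bound by ATF4 with C/EBP partners, searched as TGATG, 1 base of any kind and AAT, was in 0 of 10 genes against 0.512%. Base composition set the genes less apart: their median GC content was 61.7% and their median ratio of observed to expected CpG 0.768, against 58.3% and 0.728 over all windows. The ERSE and ERSE-II were already known as elements of UPR promoters, so these shares describe the genes and were not tested. A match is a stretch of letters, and binding was not measured here.

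All 10 genes had a TSS in an H3K27ac UP region. The background was 12261 genes whose TSS lay in a region of any class, of which 21.4% had a TSS in an UP region and 8.91% in a DOWN region. None of the 10 had a TSS in a DOWN or an unchanged region. The UP share was 21.7% over protein-coding genes. It was 27% over genes whose widest TSS region reached 1947 bp, the width of the narrowest TSS region of the 10. Each gene had a TSS in a region of its own, and no region was shared by 2 of the 10. The width of a region comes from peaks called on the pooled libraries of both treatments, so no width can be given to 1 treatment.

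The chaperones of the HSP70 and HSP90 families had TSS regions of 3157 to 6701 bp. Hspa5 encodes BiP, the HSP70 chaperone of the ER lumen that also holds the UPR sensors inactive. Its TSS region, chr2:34768960-34775660, was 6701 bp wide, the widest of the 10, and was wider than 91.9% of UP regions with a TSS. It ran from 3010 bp upstream to 3690 bp downstream of the reference TSS, covered 66.2% of the gene (chr2:34771970-34777547, plus strand) and overlapped all 9 exons of the reference transcript. All 6 annotated transcripts started inside it. Hsp90b1 encodes GRP94, the HSP90 chaperone of the ER. Its region, chr10:86703020-86707183, measured 4164 bp, at the percentile 80.2 of UP regions with a TSS, and covered exons 1 to 4 of 18. Of its 5 transcripts, 2 started in the region, while the other 3 started 3.54 to 9.79 kb downstream, outside any region. Hyou1 encodes GRP170, a large HSP70 relative that acts as a nucleotide exchange factor of BiP. Its region, chr9:44378284-44381440, was 3157 bp wide and reached 1206 bp upstream and 1950 bp into the gene, over exons 1 to 5 of 26.

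The study's own ChIP-qPCR amplicons at these promoters fell inside the UP regions. The Hsp90b1 primers gggacgggaaacacgaactc and tggacagttccgattggcgg bound a 103-bp stretch, chr10:86705512-86705614, from -105 to -3, which holds the downstream ERSE. The Hspa5 primers aatcagcggcctccaacga and tcagtgttgtctcggccagt bound 121 bp, chr2:34771994-34772114, from 25 to 145, which holds the ERSE after the TSS.

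The lectin chaperones, which bind monoglucosylated glycans on newly made glycoproteins, had regions of 2813 and 3954 bp. Calr encodes calreticulin, the soluble form, which also stores calcium in the lumen. Its region, chr8:84844538-84848491, measured 3954 bp and covered 47.1% of the gene and exons 1 to 5 of 9. Canx encodes calnexin, the membrane-bound form. Its region, chr11:50324064-50326876, measured 2813 bp and covered 5.08% of a gene that spans 31.7 kb, with exon 1 only. The 2 Canx transcripts with a TSS in the region were joined by 3 processed transcripts that started 24.7 to 27.4 kb downstream, where no region lay.

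The J-proteins, which bring substrates to BiP and stimulate its ATPase, spanned nearly the whole range of widths. Dnajc3 encodes P58IPK, also known as an inhibitor of the kinase PERK. Its region, chr14:118934432-118940923, measured 6492 bp, wider than 91.3% of UP regions with a TSS, and reached 3544 bp upstream of the TSS, the farthest of the 10. Dnajb9 encodes ERdj4, which acts on BiP at the sensor IRE1 and in the disposal of misfolded proteins. The region at Dnajb9, chr12:44208473-44211026, measured 2554 bp and reached only 700 bp upstream but 1853 bp downstream. Dnajb11 encodes ERdj3, a J-protein of the lumen that can be secreted. The region at Dnajb11, chr16:22856638-22858795, was narrower, at 2158 bp, with 3 of 4 transcript starts inside it.

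Among the remaining genes, Sdf2l1 encodes a partner of ERdj3 and BiP. The region at Sdf2l1, chr16:17131518-17133464, was the narrowest of the 10 at 1947 bp, at the percentile 44.4 of UP regions with a TSS, but the gene spans only 2.25 kb and 38.6% of it was covered. Manf encodes a small secreted protein that is retained in the ER by BiP. The region at Manf, chr9:106890350-106893343, measured 2994 bp and held 6 of 7 transcript starts. The remaining Manf start lay 1.70 kb downstream of the reference TSS, just outside the region.

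**Figure D2:**
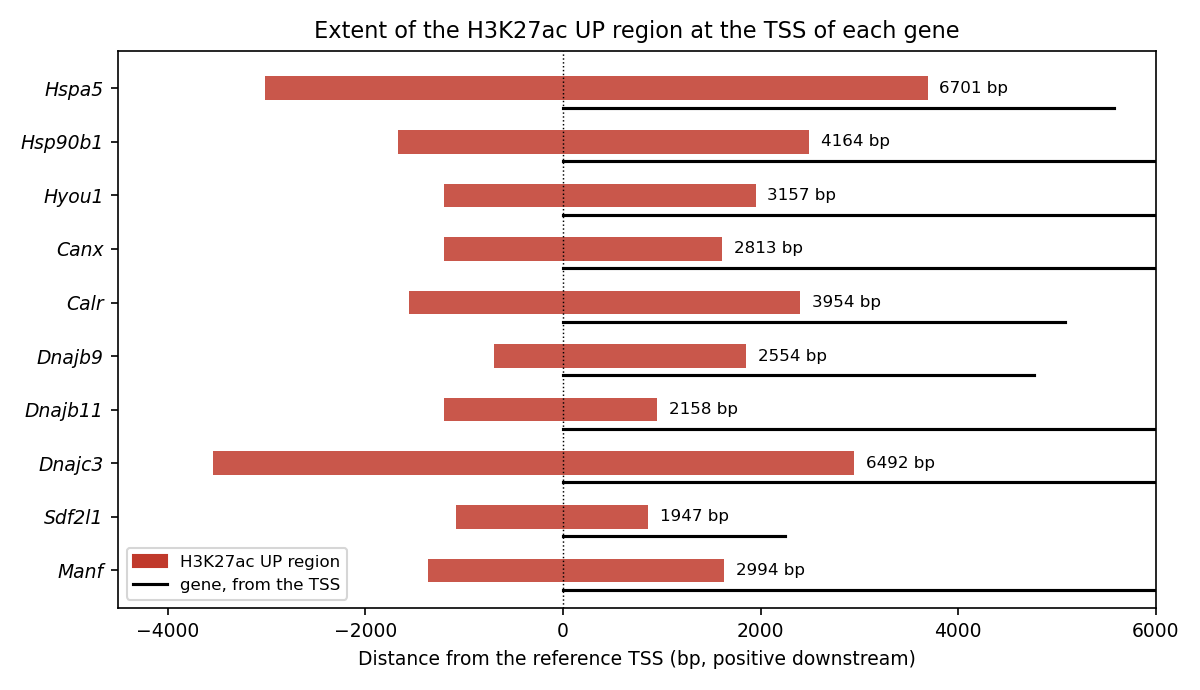
Extent of the H3K27ac UP region at each gene in bp from the reference TSS, with positive values downstream, and of the gene itself from the TSS up to the edge of the plot. The Hspa5 and Dnajc3 regions reach 3010 and 3544 bp upstream, while the other 8 stop within 1674 bp.

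Over the 10 genes the TSS region had a median width of 3076 bp. The corresponding median was 2152 bp for the UP regions of protein-coding genes, 4332 bp for DOWN regions and 1627 bp for unchanged regions. All but Sdf2l1, 9 of the 10, had a region wider than 2136 bp, the median of the 2047 UP regions with a TSS. Hspa5 and Dnajc3, 2 of the 10, exceeded the median of protein-coding genes at DOWN regions. The region reached farther downstream than upstream of the TSS in 7 of the 10 genes, against 67.2% of protein-coding genes at UP regions. The 3 exceptions were Dnajb11, Dnajc3 and Sdf2l1.

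**Figure D3:**
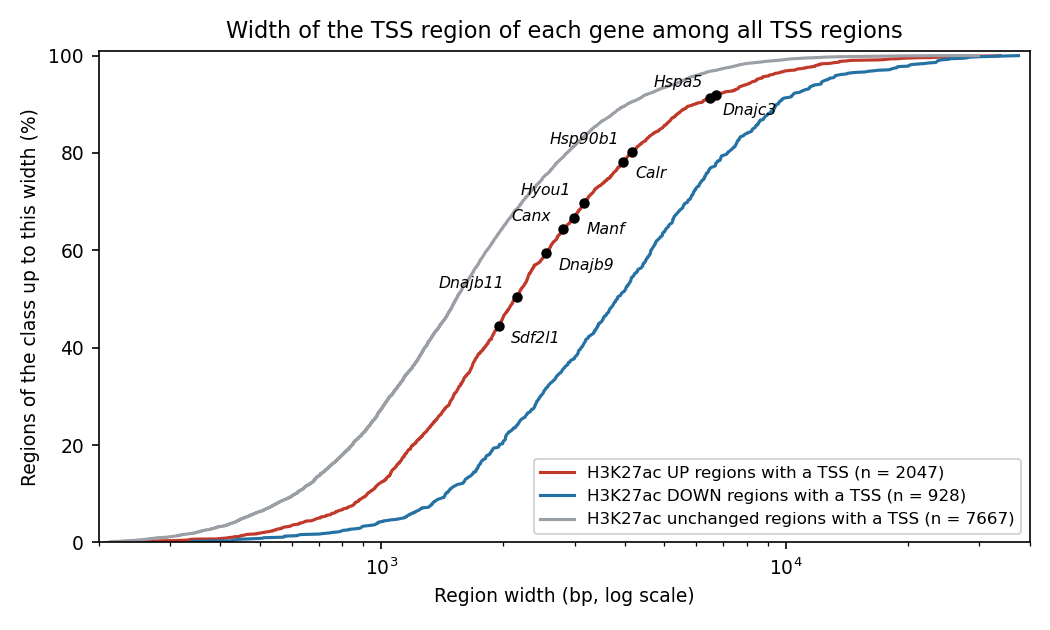
Cumulative share of H3K27ac regions with a TSS (percent) against their width in bp on a log axis, for the UP, DOWN and unchanged classes, with the 10 genes as points on the UP curve. The genes run from the percentile 44.4 (Sdf2l1) to 91.9 (Hspa5).

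For 6 of the 10 genes the UP region also held a TSS of another gene, so the class cannot be given to the chaperone alone. The share of all genes with a shared TSS region is not given here, so the count describes these genes only. For 2 of these genes the other gene is protein-coding: Ttc41, on the opposite strand 302 bp from Hsp90b1, and Tbccd1, on the opposite strand 176 bp from Dnajb11. The region of Hsp90b1 also held the start of the miRNA gene Gm25745. The other shared starts belong to noncoding or unclassified transcripts: 9430081H08Rik at Hyou1, 1700122E12Rik at Calr, the miRNA gene Mir5627 at Dnajb9 and the antisense transcript 4930524O07Rik at Manf. The regions at Hspa5, Canx, Dnajc3 and Sdf2l1 held no other TSS.

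Within the gene bodies no UP region lay apart from the TSS region. The share of all genes without such an UP region is not given here, so its absence cannot be called particular to the 10. The 10 genes overlapped 10 UP regions, each of which held the gene's own TSS, and 6 unchanged regions and 1 DOWN region. Dnajc3 contained 3 of the unchanged regions, of 494, 1225 and 707 bp, the first of which began 3.98 kb past the TSS. Manf overlapped 2, of 1894 and 493 bp, and Canx 1, of 739 bp over exon 8. The wider region in Manf also held the TSS of Rbm15b. The DOWN region was at Dnajb11. A DOWN region in the gene was found for 1 of the 10 genes and for 15.0% of all genes with a TSS in a region.

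Dnajb11 was the gene of the 10 that overlapped both UP and DOWN regions. Its UP region at the TSS was followed after 18.2 kb by a DOWN region of 25256 bp, chr16:22877001-22902256. That region overlapped the last 12.1% of the annotated gene, beyond the end of the reference transcript. It also held the TSS of Ahsg, which encodes the plasma protein fetuin-A, and that of Gm30505. Most of the DOWN region thus lay outside Dnajb11.

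Around the genes, 52 regions lay within 50 kb of a TSS of the 10: 18 UP, 2 DOWN and 32 unchanged. Leaving out the 10 TSS regions, 42 were left, of which 8 were UP (19.0%), 2 were DOWN (4.76%) and 32 were unchanged (76.2%). The UP share of these was near the 17.1% of all regions. More UP than DOWN regions were counted for 8 of the 10 genes, against 41.5% of genes. The TSS region itself adds 1 UP region to each of these counts. An UP region besides those at the gene's own TSSs lay within 50 kb for 2 of the 10 genes, Hspa5 and Hyou1, against 42.5% of genes. A further DOWN region lay there for 2 of the 10, Canx and Dnajb11, against 27.5%. Counting all classes, the median number of regions within 50 kb was 4.50 for the 10 genes and 4.00 for all genes.

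Hspa5 had the most regions around it, 6 UP and 5 unchanged. The nearest further UP region, of 1588 bp, began 6.39 kb past the TSS, beyond the 3′ end of the gene, inside Rabepk. Upstream, UP regions of 1357 and 1861 bp lay in Gapvd1 at 28.5 and 32.5 kb, and downstream others of 1747 and 1431 bp lay at 29.7 and 32.4 kb, the second of them in Fbxw2. None of the 5 held a TSS, whereas the regions at the TSSs of Gapvd1 and Rabepk were unchanged. Hyou1 had 4 UP and 5 unchanged regions. Of its further UP regions, that in Vps11 lay 31.0 kb upstream, and that with the TSSs of Rps25 and Trappc4 lay 27.1 kb downstream.

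The other genes had an UP region at the TSS alone. Around it lay 5 unchanged regions for Calr, 4 for Sdf2l1, 3 for Dnajc3, 2 for Manf and 1 each for Hsp90b1 and Dnajb9. Canx had 4 unchanged regions and a DOWN region of 1903 bp, which lay 72.3 kb from the reference TSS and was within 50 kb of its 3 downstream starts only. Dnajb11 had 2 unchanged regions beside the DOWN region at Ahsg. Of the 42 regions other than the TSS regions, 19 held a TSS of another gene, 16 of them unchanged.

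**Figure D4:**
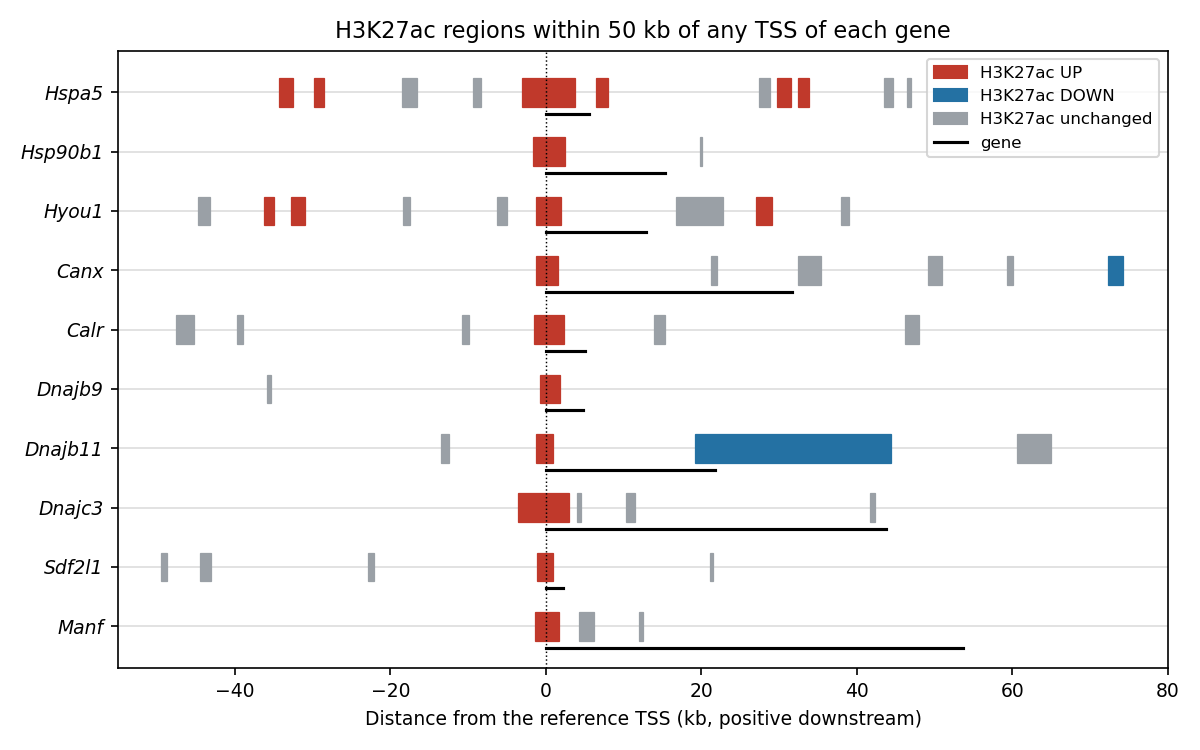
H3K27ac regions within 50 kb of any TSS of each gene, drawn to scale by distance in kb from the reference TSS, coloured by class, with the gene as a black line. An UP region covers every TSS, further UP regions appear for Hspa5 and Hyou1 only, and the 25256-bp DOWN region follows Dnajb11.

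Other genes of ER protein folding and disposal were counted from lists set by function, with earlier results of these data known. Of 65 listed genes, 60 had a TSS in a region, and 41 of these had one in an UP region (68.3%, 95% Wilson interval 55.8 to 78.7), against 21.4% of all genes. The Wilson intervals cover counting error alone, with genes as units. The list of BiP cofactors and paralogues of the 10 genes also held the folding factors Creld2 and Mesd, which are neither. In it 8 of 12 were UP: Sil1 and Hspa13, the J-proteins Sec63, Dnajc1, Dnajc10 and Dnajc25, and Creld2 and Mesd. The UP region of Mesd, 1102 bp wide, was accompanied by an unchanged region of 2388 bp at another of its starts. The paralogues Sdf2 of Sdf2l1 and Cdnf of Manf lay in unchanged regions, and the testis paralogues Clgn of Canx and Calr3 of Calr in no region. Of the protein disulfide isomerases and their oxidases, 11 of 16 were UP: P4hb, Pdia3, Pdia4, Pdia5, Pdia6, Txndc5, Txndc11, Erp29, Erp44, Ero1l and Ero1lb. Of the calnexin cycle enzymes, which trim or restore the glycans read by calnexin and calreticulin, 4 of 6 were UP: Uggt1, Ganab, Mogs and Man1b1.

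UPR sensors and factors gave 6 of 9, namely Atf6, Atf6b, Ern1, Eif2ak3, Xbp1 and Ddit3. The Ern1 region was 11863 bp wide, and Atf4 had an unchanged region of 6052 bp. For ER-associated degradation, 12 of 17 were UP: Herpud1, Syvn1, Sel1l, Derl1, Derl2, Edem1, Edem2, Edem3, Erlec1, Selenos, Ube2j1 and Ube2g2. Over the 5 lists, 18 genes had a TSS in unchanged regions only.

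Chaperones of the cytosol and mitochondria were counted beside them. Of 24 with a TSS in a region, 8 had it in an UP region (33.3%, 18.0 to 53.3), against 21.4% of all genes. The count was 10 when a TSS within 1000 bp of a region was allowed, and the difference from all genes was not tested. The 8 are named next. These were Hspa4l, Hsph1, Hspa9, Hsp90aa1, Hspd1, Hspe1, Dnaja2 and Dnaja3. Hspd1 and Hspe1 share 1 region of 6443 bp. In the HSP70 family, Hspa5 and mitochondrial Hspa9 were UP, with 6701 and 3941 bp, as were the cytosolic HSP110 relatives Hspa4l and Hsph1, with 2150 and 1359 bp. Cytosolic Hspa8 was DOWN, with 4005 bp, Hspa4 and Hspa2 were unchanged, with 3318 and 955 bp, and Hspa1a and Hspa1b had no TSS in a region. Dnajb4 was also DOWN, with 6155 bp at one start. In the HSP90 family, Hsp90b1 was UP at its reference TSS, Hsp90aa1 had an UP region of 1461 bp and an unchanged region of 2195 bp, and Hsp90ab1 and mitochondrial Trap1 were unchanged.

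**Figure D5:**
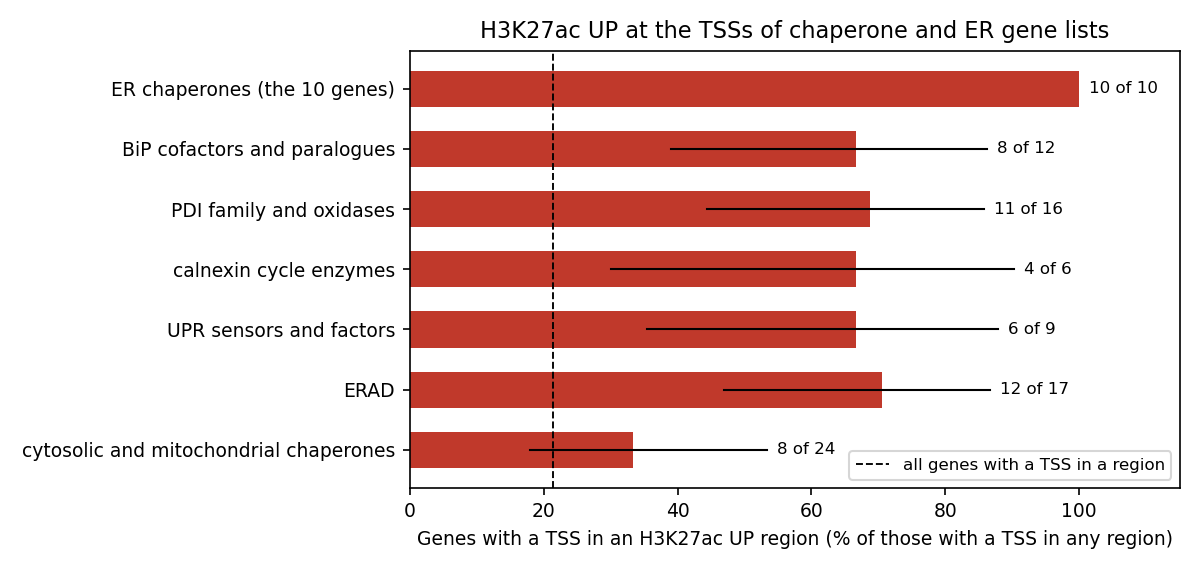
Share of genes with a TSS in an H3K27ac UP region, in percent of those with a TSS in any region, for the 10 chaperones and 6 lists. Lines are 95% Wilson intervals of the lists, the dashed line is the 21.4% of all genes, and the shares of the 5 ER lists lie above it. The lists were set with earlier results known, and the differences were not tested.

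All 6 hepatocyte markers (Alb, Ttr, Apoa1, Hnf4a, Cps1 and Tat) had a TSS in a region, with Apoa1 and Hnf4a in DOWN regions. Of the other cell types of liver, Cd68 was the 1 of 4 markers of Kupffer cells and leukocytes with a TSS in a region, Stab2 the 1 of 3 of sinusoidal endothelium and Sox9, in an UP region, the 1 of 3 of cholangiocytes. For stellate cells 0 of 3 had one.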

How the data were processed

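H3K27ac ChIP-seq was performed by the authors on MPH, with 3 H3K27ac libraries and 1 input per treatment. Per the labels and the study's methods, reads were aligned with Bowtie to mm10 (versions of Bowtie and MACS2 are not given in the sources used here), and duplicates and blacklisted regions were removed. Broad peaks were called with MACS2 on pooled libraries (q of 0.001 narrow and 0.01 broad). Bins of 150 bp were counted, filtered against input, loess-normalized and tested in a paired csaw 1.6.1 analysis. Bins overlapping a peak were combined. Regions with an FDR of at most 0.05 were split into UP and DOWN by the ratio of UP to DOWN bins (2 and 0.5). Those with a ratio between these cut-offs meet neither definition. The deposited values used here are region starts and ends in base pairs, with no depth.

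From these, regions holding any GENCODE M21 TSS, overlapping a gene by at least 1 bp, or within 50 kb of a TSS were counted. A gene counted in each class that held one of its TSSs, chrM was left out, and percentiles are shares of narrower TSS regions. The reference TSS is that of the first protein-coding transcript by APPRIS principal tag, CCDS and support level. Promoter sequence was read from RefSeq GRCm38.p6, and 7 of the 8 RefSeq promoter entries of these genes shared 60 bases with the windows. Motif shares are over protein-coding genes. No test was run. The genes and lists were chosen with earlier results of these data known. The rule named the 10 genes, genes sharing their TSS regions, and listed genes at UP or DOWN regions. Other genes were named after their values were seen, and some genes under the rule are not reported here. Counting and motif functions were tested on simulated data. Python 3.11.15, numpy 2.4.6, scipy 1.17.1 and matplotlib 3.10.9 were used.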

Additional observations from a re-analysis of the deposited data

How the results depend on the processing

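Every gene of the 10 kept a TSS in an UP region under each of the 6 alternatives tried for that count. These were protein-coding transcripts, the reference TSS, a TSS within 1000 bp and each gene counted once. The others were regions covering 500 bp on each side and regions of at least 1000 bp. None of these settings could have changed the count. The TSS region of each gene held its reference TSS and was at least 1947 bp wide. It reached at least 700 bp upstream and 865 bp downstream of that TSS. The share of all genes moved from 21.4% to 24.3% with 500 bp covered on each side, 23.7% with regions of at least 1000 bp, 27% with TSS regions at least as wide as the narrowest of the 10, and 20.4% with each gene counted once. Around the genes, a distance of 10 kb gave 11 UP, 1 DOWN and 9 unchanged regions, and 100 kb gave 30 UP, 3 DOWN and 55 unchanged. Without regions that hold a TSS, 6 UP, 1 DOWN and 16 unchanged were left. Regions of at least 1000 bp gave 18 unchanged. By base pairs the DOWN share rose from 3.85% to 22.3%, since the region at Ahsg is 25256 bp wide. In the genes, 0 UP regions lacked a TSS of the gene. Of 59 alternatives, the other 44 left counts within 1.5 times their value and shares within their Wilson interval. In these, an ERSE or ERSE-II was found in 6 genes, or 8 in the window added after seeing the data. Unchanged regions in the genes fell from 6 to 4 with at least 500 bp in the gene. The cytosolic and mitochondrial list had 10 UP genes with a TSS within 1000 bp. With protein-coding transcripts, the UP genes of the calnexin cycle list fell from 4 to 3.

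No paired analysis was possible because the region lists hold no values per library. Leaving out each replicate was not run either, and depth and the authors' normalization were not checked. Regions come from the peak caller's thresholds, so a gene without a region is only below them. H3K27ac at a promoter is not the amount of transcript.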

Other observations

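Genes other than the 10 chaperones that carry the same promoter elements were counted by class. These genes were named after their values were seen, and a match is a description. An ERSE or ERSE-II in the 300 bases before the reference TSS was found in 16 protein-coding genes outside the 10 and the genes at their TSS regions. Of these, 12 had a TSS in an UP region (75.0%, 95% Wilson interval 50.5 to 89.8), 1 in a DOWN region and 3 in unchanged regions only. The interval has genes as units, so any genes that share a promoter count separately. Creld2, Pdia6, Ero1lb and Herpud1, among the 12, were also counted in the ER lists above. The UP share of the 9734 genes with neither motif was 21.5%. Several of the 12 act in the secretory pathway: Creld2 and Pdia6 in folding, Ero1lb in the oxidation of disulfide isomerases, Herpud1 in ER-associated degradation, Alg12 in glycan assembly, Tmed2 in vesicle traffic and Nucb1 in calcium binding. The others were Hnrnpa3, Pan2, Rcl1, Ung and Zfp57. The DOWN gene was Acnat2, and the unchanged genes were Acacb, Lgalsl and Rbm39.

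The UPRE gave a share between these. Outside the same genes, 73 promoters held it and 34 were at UP regions (46.6%, 35.6 to 57.9). With the CARE, 13 of 50 were at UP regions (26.0%, 15.9 to 39.6), beside 21.5% of genes with neither ERSE nor ERSE-II. The differences between these shares were not tested.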
